A study of Mus musculus with 17 samples.

Results

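The receptors for glutamate, acetylcholine, serotonin, dopamine and noradrenaline were examined in the hypothalamus of diabetic and obese mice. Members were the probe sets with a single platform gene symbol of the Gria, Grin, Grik, Grm, Chrn, Chrm, Htr, Drd or Adr receptor families, leaving out Grina, the Htra genes and Adrm1. The rule found 54 probe sets for 46 genes, among 12393 genes with a single symbol on the array, and it used no measured value. The genes were 4 AMPA, 5 NMDA and 4 kainate receptor subunits, 1 metabotropic glutamate receptor, 11 nicotinic subunits, 3 muscarinic, 13 serotonin, 3 dopamine and 2 adrenergic receptors.

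All mice were males of the C57Bl/6 strain, 9 weeks old, with 1 array for each of 17 hypothalami. The 6 control mice were wildtype and were injected with vehicle. The 6 STZ mice were wildtype and were given 1 intraperitoneal injection of STZ (streptozotocin, which kills the pancreatic beta cells that make insulin) at 200 µg/g body weight. The 5 ob/ob mice carry the leptin-deficient ob allele in every tissue, and the labels do not say whether they were injected. The time between injection and dissection is not given in the sources used here. The series title places the study in the field of diabetes, insulin and brain cholesterol metabolism, so the receptors were not its declared topic.

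Ionotropic glutamate receptors (AMPA, NMDA and kainate) and nicotinic receptors are channels that open when the transmitter binds, and each channel is assembled from several subunits. Metabotropic glutamate, muscarinic, dopamine, adrenergic and nearly all serotonin receptors instead act through G proteins, with Htr3a and Htr3b, subunits of a serotonin-gated channel, as the exception. In the hypothalamus these receptors carry the inputs to the neurons that control feeding, hormone release and body temperature. Htr2c, for example, is known as the serotonin receptor through which appetite-suppressing drugs act on Pomc neurons.

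Values are MAS5 signals, a linear measure of brightness per probe set with no unit of its own. The median signal of an array lay between 637.6 and 707 and array pairs correlated at 0.954 to 0.972 on the log2 scale. Of the list of 25 hypothalamus markers 14 were bright enough to be tested, among them Oxt, Avp and Hcrt, and of 9 pituitary markers 0 were. Markers of neighbouring tissue were also present (10 of 14 for striatum, 4 of 10 for cortex and 5 of 8 for thalamus). The mean log2 level of these 19 genes ran from 10.3939 to 10.8075 in controls, 10.5323 to 10.8953 in STZ and 10.8095 to 10.9928 in ob/ob mice. It was higher in ob/ob than in control mice by 0.27 (exact two-sided permutation p = 0.0108, not adjusted). As separate lists, striatum, cortex and thalamus did not pass (exact permutation, adjusted p = 0.273, 0.0866 and 0.273 over lists and comparisons). Hypothalamus markers stood at -0.16 (exact permutation p = 0.0216, adjusted p = 0.162 over lists and comparisons). Of these 14 genes 11 were below 0, with Pomc at -0.75 and Hcrt at -0.50. The 3 above 0 included Npy at 0.27, and Sim1 and Six3 stood at -0.08 each. Pomc stood at -0.65 in STZ mice too. In whole tissue, fewer cells of a type and less RNA per cell cannot be told apart.

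The brightest probe set stood for each gene, and probe sets below a mean signal of 435 over all arrays (the 40th percentile) were not tested. Of the 46 receptor genes 18 passed and 28 did not. All 4 AMPA subunits passed, as did Grin2b and Grin2c of the NMDA subunits, Grik1, Grik2 and Grik5 of the kainate subunits and Grm8, a presynaptic glutamate receptor. Of the others Chrna4, Chrna6 and Chrnb2 (3 of 11 nicotinic subunits), Htr1a, Htr1b, Htr2c and Htr3a (4 of 13 serotonin receptors) and Drd2 (1 of 3 dopamine receptors) passed. No muscarinic or adrenergic receptor did (0 of 3 and 0 of 2). A signal depends on the probes as well as on the RNA, so signals of different genes do not rank their abundance.

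**Figure D1:**
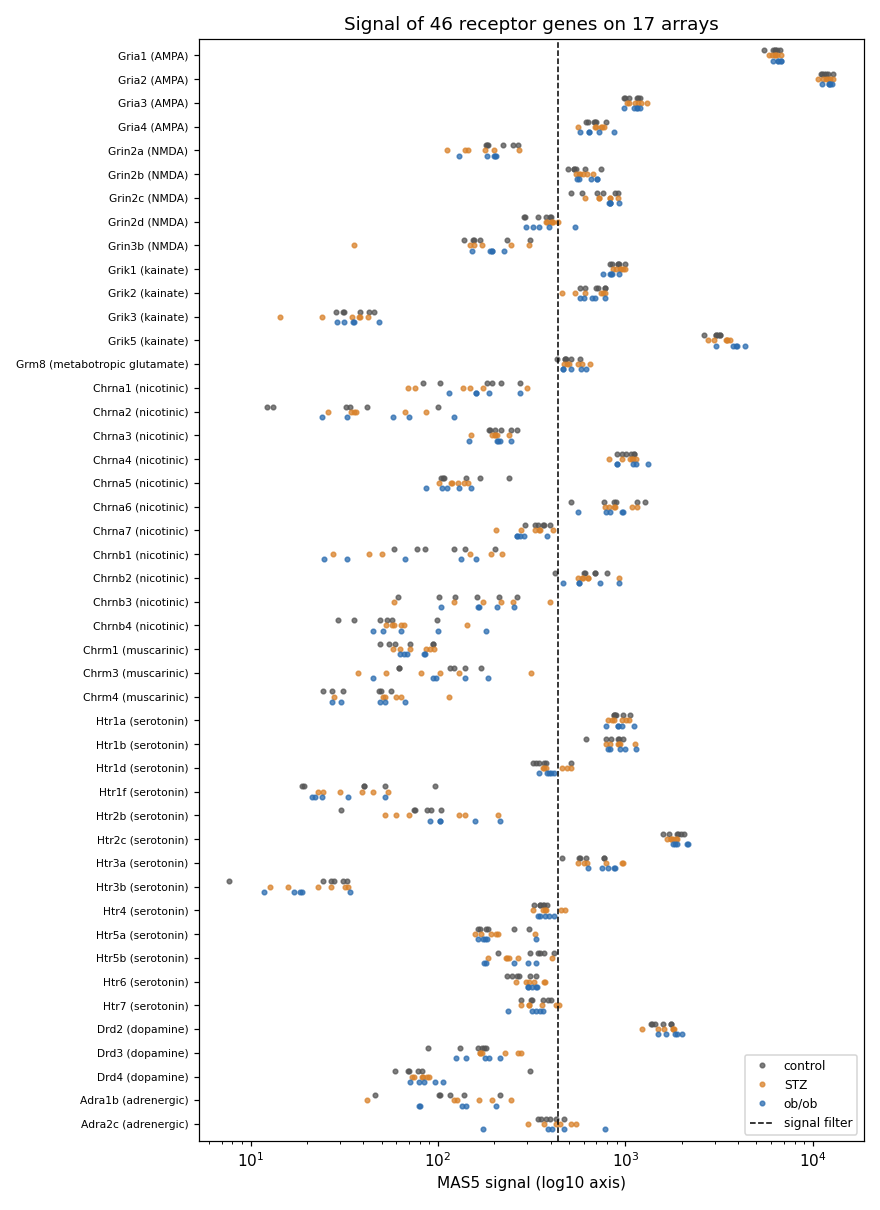
MAS5 signal (log10 axis) of the brightest probe set of each of 46 receptor genes, with a point for each of 17 arrays in dark grey (control), orange (STZ) and blue (ob/ob). The dashed line is the signal filter at 435, which 18 genes passed on their mean, and the points of the 28 genes with a mean to its left scatter more widely between arrays.

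Sequence around a RefSeq start of a pair of kainate receptor subunits is shown because Grik5, the high-affinity subunit formerly called KA2, had the smallest p of any receptor gene, while Grik2, which forms channels with it, was lower in both models without passing a test. Each runs from 250 bases before to 50 bases after that start, in RefSeq's sequence of GRCm38.p6, on the minus strand. Grik5 lies at chr7:25072320-25072619 and Grik2 at chr10:49788705-49789004. On this strand the genes as annotated begin further out, at 25075694 and 49790161, so both stretches lie inside the gene span and belong to 1 of its starts. Capitals mark the GC box, GGGCGG, or its reverse complement, searched on both strands.
Grik5: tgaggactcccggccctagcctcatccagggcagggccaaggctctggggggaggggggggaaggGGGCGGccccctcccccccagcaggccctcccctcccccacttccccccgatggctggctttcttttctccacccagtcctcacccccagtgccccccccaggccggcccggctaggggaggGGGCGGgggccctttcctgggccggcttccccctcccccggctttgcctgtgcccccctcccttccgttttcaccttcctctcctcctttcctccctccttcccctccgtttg
Grik2: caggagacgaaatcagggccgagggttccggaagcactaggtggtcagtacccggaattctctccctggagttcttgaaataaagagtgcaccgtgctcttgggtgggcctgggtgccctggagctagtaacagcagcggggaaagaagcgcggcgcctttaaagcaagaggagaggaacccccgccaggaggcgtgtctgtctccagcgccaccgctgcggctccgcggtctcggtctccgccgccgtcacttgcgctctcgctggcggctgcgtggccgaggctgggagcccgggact
The Grik5 stretch had 72% G and C and 2 GC boxes, and the Grik2 stretch 64.7% and 0. Among genes with such a sequence, 38.2% of 27025 had a GC box, as did 18 of the 34 receptor genes matched by symbol (52.9%). A match describes the letters only.

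No receptor gene passed the test between STZ and control mice. Of 18 tested, 0 passed an adjusted p of 0.05 (limma, Benjamini-Hochberg over 13576 probe sets), where 0.0503% of all 7954 genes tested did. At an unadjusted p under 0.05 there were also 0, against 8.52% of all genes, and in 0 of them did the groups not overlap (0.49% of all genes). The receptor values lay between -0.11 and 0.25 on the log2 scale with a median of 0.05, and 14 of 18 were above 0, where 51.6% of all genes were and the median was 0.0042.

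Among the AMPA receptor subunits, which carry fast excitation, Gria1 and Gria2 had the narrowest intervals of all 18 genes. Gria1 on its brightest probe set ran from 5501 to 6684 in controls (median 6285) and from 5840.1 to 6728 in STZ mice (median 6286). The groups overlapped almost completely, with a difference of 0.9% and a 95% interval of -5.7 to 8.0%. Gria2, the subunit that sets calcium permeability, ran on its brightest probe set from 11098 to 12746 in controls (median 11580.2). In STZ mice it ran from 10704 to 12846 (median 11846), a difference of 0.8% (interval -5.8 to 7.8%). Gria3 and Gria4 stood at 0.07 ± 0.076 (SE, n = 6 and 6) and 0.03 ± 0.10, and the widest of the 4 intervals, that of Gria4, ran from -11.8 to 19%.

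Among receptors higher in STZ mice, those with the smallest p were Htr3a, Grik5, Grm8, Htr1b and Gria3. Htr3a, the obligate subunit of the serotonin-gated channel, ran from 460.1 to 769.5 in controls (median 593.5) and from 561.7 to 969 in STZ mice (median 702). Of the STZ arrays 3 of 6 lay above every control and the others lay within the control range, for a value of 0.25 ± 0.15 (limma, adjusted p = 0.695). Grik5 stood at 0.11 ± 0.080, Grm8 at 0.14 ± 0.11 and Htr1b, a serotonin receptor, at 0.13 ± 0.11 (limma, adjusted p from 0.77 to 0.811). For Grik5 4 of 6 STZ arrays lay above every control, in an STZ range of 2764 to 3622 (median 3451). Lower values were found for 4 genes only: Grik2 at -0.11 ± 0.13, Htr2c at -0.05 ± 0.067, Chrna4 at -0.0037 ± 0.098 and Htr1a at -0.000046 ± 0.087. For Htr2c the interval was -12.4 to 6.2% of the control signal.

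In ob/ob mice the kainate subunit Grik5 stood highest against its own spread, without passing over all genes. In controls its signal ran from 2626 to 3209.8 (median 3088.5). The ob/ob arrays gave 3029.9, 3747, 3878, 3922 and 4330.3. All but 1 of the ob/ob arrays lay above every control, and the groups overlapped through ob/ob 1 alone. The difference was 0.31 ± 0.084 (SE, n = 5 and 6), or 23.7% with a 95% interval of 9.5 to 39.7% (limma, adjusted p = 0.144). Control 3, with 2626, stood apart from the other controls, which ran from 3056 to 3209.8. Leaving out each array in turn gave values from 0.26 to 0.38 and an adjusted p between 0.0584 and 0.271.

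**Figure D2:**
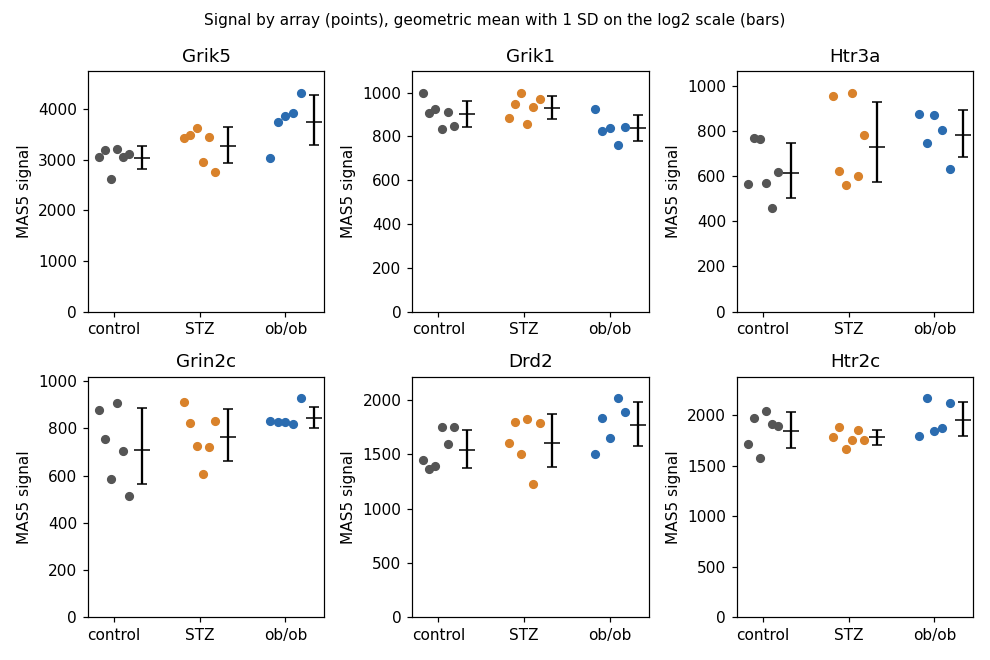
MAS5 signal (linear axis from 0) of 6 receptor genes in control, STZ and ob/ob mice, with a point for each array and, beside the points, the geometric mean with 1 SD on the log2 scale. For Grik5, 4 of 5 ob/ob arrays and 4 of 6 STZ arrays lie above every control. Grik1 lies lower in ob/ob mice with overlap. The 5 ob/ob arrays of Grin2c sit between 819.4 and 926.4, with 4 of 5 inside a control range of 512.7 to 909.

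Of 18 receptor genes tested in ob/ob against control, 0 passed the adjusted threshold (limma; 0.101% of all genes did). Those with an unadjusted p under 0.05 were 2, Grik5 and Htr3a, which is 11.1% beside 12.1% of all genes. The groups of 0 genes were free of overlap, where those of 1.75% of all genes were. Values ran from -0.12 to 0.35 with a median of 0.06, and 15 of 18 were above 0 (51.9% of all genes, median 0.0051). The 6 control arrays are the same as in the comparison with STZ mice.

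Htr3a gave 874.9, 745.7, 870.7, 803.7 and 633.4 in the ob/ob arrays, against 460.1 to 769.5 in controls (median 593.5). Of the ob/ob arrays 3 of 5 lay above every control, and the value was 0.35 ± 0.16 (adjusted p = 0.396). The NMDA subunits Grin2c and Grin2b, which tune the time course of the channel, stood at 0.25 ± 0.13 and 0.15 ± 0.11 (adjusted p = 0.472 and 0.631). Grin2c gave 819.4 to 926.4 in ob/ob mice, inside or just above a control range of 512.7 to 909. Drd2, the inhibitory dopamine receptor that also serves as the autoreceptor of dopamine neurons, ran from 1368 to 1754 in controls (median 1516). Its ob/ob arrays gave 1500.3, 1830.2, 1652, 2012 and 1886, for a value of 0.20 ± 0.10 (adjusted p = 0.475).

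Lower values in ob/ob mice were 3. Grik1, a low-affinity kainate subunit, gave 923.5, 825.2, 837, 761.6 and 842.7, against 832 to 1000.0 in controls (median 909.9), a value of -0.11 ± 0.071 (adjusted p = 0.59). The others were Chrna6 at -0.12 ± 0.19 and Grik2 at -0.06 ± 0.14 (adjusted p = 0.862 and 0.908). Kainate subunits held both the smallest p and 2 of the 3 negative values, whereas all 4 serotonin receptors tested and all 4 AMPA subunits were above 0, which did not hold with the region covariate described next. On their brightest probe sets Gria1 and Gria2 stood at 4.8% and 3.7%, with intervals of -2.4 to 12.5% and -3.4 to 11.3%.

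Several of these values moved when the mean level of the 19 neighbouring-region markers was a covariate in the fit. In that level every ob/ob array (lowest 10.8095) lay above every control (highest 10.8075). Region level and genotype therefore cannot be told apart here, and the values with the covariate do not give a share due to region. Drd2 went from 0.20 to 0.07, Grin2c from 0.25 to 0.05 and Htr2c from 0.08 to 0.0072. Grik5 and Htr3a kept most of their size, at 0.29 ± 0.11 and 0.37 ± 0.21, and neither passed (limma, adjusted p = 0.532 and 0.705). Chrna6 changed sign, from -0.12 to 0.22 ± 0.22. Among AMPA subunits Gria2 went from 0.05 to -0.01, Gria3 from 0.04 to -0.04 and Gria4 from 0.00065 to -0.06, and Htr1a went from 0.02 to -0.0049. In all, 5 of 18 signs turned and 12 of 18 values were above 0 with the covariate. Other marker lists stood apart between ob/ob and control mice without passing, by 0.21 for tanycytes and ependyma and -0.14 for microglia (exact permutation, adjusted p = 0.0649 and 0.0866), and their part in the receptor values was not tested.

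The models themselves were compared in 1 contrast, ob/ob against STZ, which is also the test of whether they differ from control alike. Of 18 receptor genes 0 passed (limma; 0.0377% of all genes did), and 2 had an unadjusted p under 0.05, or 11.1% beside 4.19% of all genes. In 0 of 18 were the groups free of overlap (0.49% of all genes), and 12 of 18 values were above 0 (51.3% of all genes), with a median of 0.05 against 0.0022. The pair with an unadjusted p under 0.05 were kainate subunits with opposite signs. Grik5 stood at 0.20 ± 0.084 and Grik1 at -0.15 ± 0.071 (limma, adjusted p = 0.9996 in each case). For Grik1 the STZ arrays ran from 858.8 to 997.5 (median 941.1) and 4 of 5 ob/ob arrays lay below all of them. For Grik5 4 of 5 ob/ob arrays lay above all STZ arrays, which ran from 2764 to 3622.

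**Figure D3:**
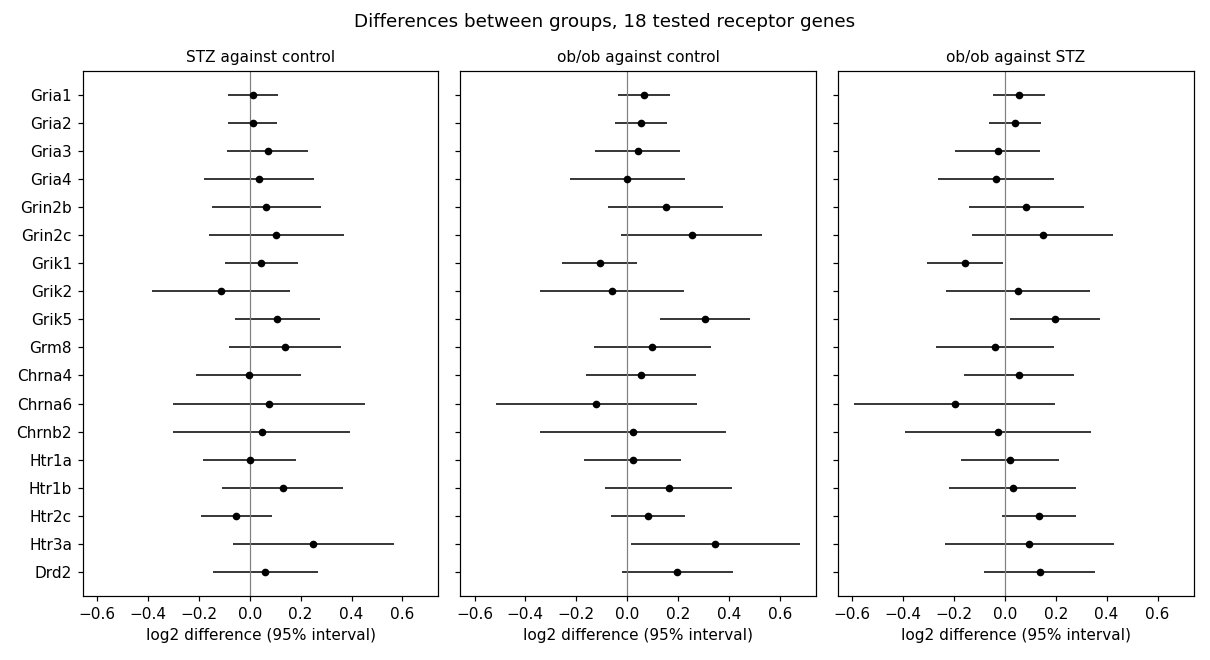
Log2 difference with its 95% interval for 18 tested receptor genes for each model against control and for ob/ob against STZ, from 1 limma fit. Intervals are narrowest for Gria1 and Gria2 and widest for Chrna6, Chrnb2 and Htr3a, and those of Grik5 and Htr3a in ob/ob against control and of Grik1 and Grik5 in ob/ob against STZ leave out 0 before adjustment.

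Htr2c gave 1800 to 2167 in ob/ob and 1667 to 1882 in STZ mice, a value of 0.13 ± 0.070. Drd2 and Grin2c stood at 0.14 ± 0.10 and 0.15 ± 0.13, and Gria1 at 0.05 ± 0.049. On the lower side were Chrna6 at -0.20 ± 0.19, Gria3 at -0.03 ± 0.080, Grm8 at -0.04 ± 0.11 and Gria4 at -0.03 ± 0.11. The adjusted p of every tested receptor gene in this contrast was 0.9996. With the neighbouring-region level as a covariate 0 receptor genes had an unadjusted p under 0.05 here, and Drd2 stood at 0.07, Grin2c at 0.05 and Chrna6 at -0.02.

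The other receptors overlapped widely between all groups. Grm8 ran from 429.9 to 570.7 in controls, 472.8 to 650.5 in STZ and 462.3 to 617.7 in ob/ob mice. Htr1b ran from 617.9 to 965.5, 787.5 to 1131 and 809.7 to 1138 in the same order, so its lowest array was a control. Grin2b ran from 492.5 to 737.5, 547 to 672.1 and 548.5 to 705.2, with the widest range in controls. Grik2 ran from 574.1 to 778.5, 456.7 to 775.4 and 570.9 to 781.4, its lowest array being an STZ mouse. Chrna4 and Chrnb2, which together form the main nicotinic receptor of the brain, ran from 903.4 to 1112 and 422.5 to 798.5 in controls. In STZ mice they ran from 818.8 to 1133 and 557.9 to 920.8, and in ob/ob mice from 904.6 to 1312 and 466.9 to 922.8. Htr1a, a serotonin receptor, ran from 865.8 to 1056, 810.2 to 1047 and 791 to 1108. None of these 7 genes had an unadjusted p under 0.05 in any contrast.

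In 5 genes a second probe set was bright enough to test. For Gria2 it read 3586 to 4959 in controls (median 4045), 3996 to 5005 in STZ and 4285 to 5002 in ob/ob mice, with values of 0.16 ± 0.076 and 0.21 ± 0.080 against control (limma, adjusted p = 0.613 and 0.304). The 95% intervals of this second probe set, before adjustment, were -0.2 to 24.4% in STZ and 2.7 to 29.4% in ob/ob mice. The brightest Gria2 probe set gave 0.01 and 0.05 in the same comparisons. The second Chrna4 probe set gave 0.12 and 0.22 where the brightest gave -0.0037 and 0.05, and the second Htr1a probe set 0.09 and 0.15 where the brightest gave -0.000046 and 0.02. For Gria1 and Chrna6 the pairs had the same sign. Over probe sets, 3 of 23 had an unadjusted p under 0.05 in ob/ob against control, the added one being this Gria2 probe set, where 11.9% of all probe sets did.

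The nicotinic subunit Chrna6, which in brain marks dopamine neurons and pairs with Chrnb3 there, had the widest spread within groups of any tested receptor gene. Its SD within groups was 0.35 on the log2 scale, where the median was 0.17 over the 18 receptor genes and 0.13 over all genes tested. Control mice ran from 511 to 1270.2 (median 881), STZ mice from 780.7 to 1156 (median 875.7) and ob/ob mice from 558.4 to 972.5 (median 823.8). The groups overlapped throughout.

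Across mice of a group, Chrna6 went with the genes of dopamine neurons. Their level was the mean log2 signal of Slc6a3, the dopamine transporter, Th, the rate-limiting enzyme of dopamine synthesis, and Ddc, which makes dopamine from L-DOPA; these 3 were chosen after values were seen. Control 2 had the lowest signals of the series, 2075 for Slc6a3 and 511 for Chrna6, and control 6 the highest, 6947 and 1270.2. In a limma fit with the 3 group means, Chrna6 changed by 0.96 ± 0.15 log2 units for each log2 unit of that level (adjusted p = 0.00885 over 13576 probe sets). Its p was rank 4 of 13576, behind only the 3 genes that make up the level, and ahead of Aldh1a1, an enzyme of a subset of midbrain dopamine neurons (0.67 ± 0.10, adjusted p = 0.00885). Of 18 receptor genes 1 passed, where 0.0629% of all genes did, these 5 genes in all. That share includes Chrna6 and the 3 genes of the level, which were tested on a mean that holds them. It is therefore no independent background for the count. Before adjustment 1 of 18 receptor genes passed on the brightest probe set, against 9.2% of all genes. Without control 2 the slope was 0.99 (limma, adjusted p = 0.187), without control 6 it was 0.96 (adjusted p = 0.0745), and over all arrays left out in turn it ran from 0.91 to 1.003. The lists of neighbouring tissue held no midbrain markers, so midbrain and hypothalamic dopamine neurons cannot be told apart in this level.

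**Figure D4:**
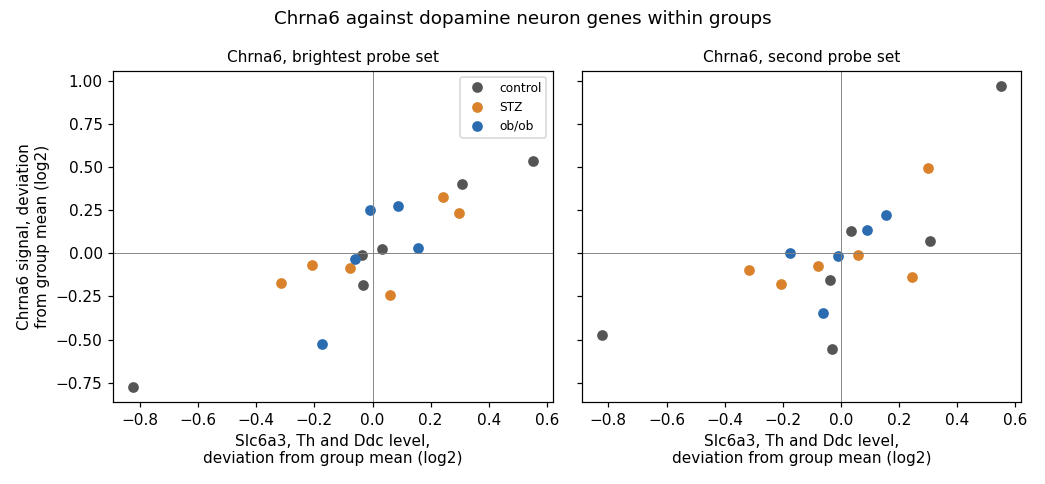
Chrna6 signal against the mean level of Slc6a3, Th and Ddc on 17 arrays, each as the deviation from its group mean in log2 units, for the brightest Chrna6 probe set (left) and the second one (right). Points in dark grey are control, in orange STZ and in blue ob/ob mice, and control 2 lies lowest and control 6 highest on the horizontal axis.

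The second Chrna6 probe set gave a slope of 0.85 ± 0.22 (limma, adjusted p = 0.275). The second probe sets of Gria1 and Gria2 gave slopes of -0.38 ± 0.11 and -0.22 ± 0.10 (limma, unadjusted p = 0.00227 and 0.038, adjusted p = 0.311 and 0.499). Their brightest probe sets gave -0.09 ± 0.066 and -0.05 ± 0.068. Drd2, which dopamine neurons also carry, gave 0.13 ± 0.14 (adjusted p = 0.822). The groups overlapped in the level itself, which averaged 11.85 in controls, 11.98 in STZ and 11.80 in ob/ob mice (exact permutation, adjusted p from 0.571 to 0.874). With it in the fit, Chrna6 stood at -0.05 ± 0.10 in STZ and -0.08 ± 0.11 in ob/ob against control, with standard errors that fell from 0.18 and 0.19.

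Slopes on the markers of neighbouring regions were tested in the same way, and 0 of 18 receptor genes passed for striatum (0.251% of all genes did) or cortex (0%). Before adjustment 1 of 18 passed in each, beside 5.37% and 4.85% of all genes. For striatum it was Chrna6, with -0.79 ± 0.34 log2 units per unit of marker level, and its second probe set gave -0.97 ± 0.36 (adjusted p = 0.934 and 0.72). For cortex it was Gria3, at 0.51 ± 0.22 (adjusted p = 0.9998). Drd2, high in striatum, was not among them.

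The 28 receptor genes below the filter had mean signals from 21.5 (Htr3b) to 404 (Adra2c, a noradrenaline receptor). Their median SD within groups was 0.45, against 0.17 for those above it. The muscarinic receptors, which act through G proteins, had means from 45 for Chrm4 to 99.4 for Chrm3, and single arrays from 24.3 to 315. Nicotinic subunits below the filter ran from 40.3 (Chrna2) to 317 (Chrna7), serotonin receptors up to 394 (Htr1d), and the remaining NMDA subunits from 172 (Grin3b) to 372 (Grin2d). In a fit with no filter their values ran from -0.69 to 0.81 in ob/ob and from -0.37 to 0.59 in STZ against control, and 0 of 28 passed in any of the 3 contrasts (lowest adjusted p = 0.553). Drd3, a dopamine receptor, was the only one with an unadjusted p under 0.05, at 0.50 ± 0.22 in STZ mice (147 to 208, adjusted p = 0.69). Shares of all genes are given only for the filtered fit. Whether these counts are few or many for a fit with no filter therefore cannot be said.

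Partner genes of the receptors, in lists of 8, 20, 3, 5 and 28 tested genes, gave 0 calls in any of the 3 contrasts (limma, adjusted over all probe sets). In ob/ob against control the scaffolds and auxiliary subunits of glutamate receptors were above 0 in 15 of 20 (median 0.06), with 3 at an unadjusted p under 0.05, all higher. Over all genes 51.9% were above 0 and 12.1% had such a p, the shares against which the counts of these lists in ob/ob mice stand. Cnih2, which slows AMPA receptor gating, stood at 0.16 ± 0.059 and Homer3, which links group I metabotropic receptors, at 0.26 ± 0.12 (adjusted p = 0.268 and 0.406). G protein signalling genes split evenly, 14 above and 14 below 0, with 5 higher and 3 lower at an unadjusted p under 0.05. Adcy9, an adenylyl cyclase, stood at 0.25 ± 0.069 and Rgs7, which turns off Gi and Go signalling, at 0.17 ± 0.050 (both adjusted p = 0.149). Adcy8, with rank 3 by p in this list, stood at -0.30 ± 0.089 (limma, adjusted p = 0.169). Its ob/ob arrays all lay below every control, where the groups of 1.75% of all genes were free of overlap in either direction.

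All 5 monoamine genes tested were below 0 in ob/ob mice, but only Maoa by more than its standard error. Maoa, which breaks down serotonin and noradrenaline, stood at -0.16 ± 0.056 (limma, adjusted p = 0.26) and Slc6a3 at -0.09 ± 0.21. Ddc, Qdpr and Th stood at -0.04 ± 0.12, -0.0045 ± 0.056 and -0.0027 ± 0.19. For glutamate supply Slc17a6, the vesicular transporter of hypothalamic excitatory neurons, stood at -0.08 ± 0.041 and Slc1a4 at -0.13 ± 0.066, and 6 of 8 genes of that list were above 0 (median 0.08). Ache, acetylcholinesterase, stood at -0.13 ± 0.063 and Prima1, its membrane anchor, at 0.07 ± 0.18. The adjusted p of these 4 ran from 0.424 to 0.921.

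In STZ against control the same lists had medians of 0.07 (glutamate supply), 0.03 (scaffolds), 0.05 (acetylcholine), 0.09 (monoamines) and -0.02 (G protein signalling). The scaffolds were above 0 in 14 of 20 here and in 15 of 20 in ob/ob against STZ (51.6% and 51.3% of all genes). Slc38a2, a glutamine carrier, stood at 0.16 ± 0.075 and Slc17a6 at -0.08 ± 0.039. Cacng2, or stargazin, which brings AMPA receptors to the synapse, stood at -0.24 ± 0.13, Dlg3 at -0.09 ± 0.051, Ache at -0.12 ± 0.060 and Lynx1, a nicotinic receptor modulator, at 0.05 ± 0.070. Th and Maoa stood at 0.17 ± 0.18 and -0.05 ± 0.053, and Gnb5 and Prkaca at 0.16 ± 0.063 and -0.12 ± 0.050. In ob/ob against STZ, Adcy9 stood at 0.22 ± 0.069 and Rgs14 at 0.24 ± 0.12. Nptx1, a pentraxin that clusters AMPA receptors, stood at 0.23 ± 0.070 and Cnih2 at 0.15 ± 0.059 (limma, adjusted p = 0.9996 in each case). Slc1a1, a neuronal glutamate transporter, Slc38a2, Maoa and Ddc stood at 0.09 ± 0.057, -0.09 ± 0.079, -0.11 ± 0.056 and -0.13 ± 0.12. Lynx1 and Ache stood at -0.05 ± 0.073 and -0.0095 ± 0.063.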

How the data were processed

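Hypothalamus RNA was measured on 17 Affymetrix mouse arrays (6 control, 6 STZ, 5 ob/ob). The authors deposited a linear intensity for every probe set, computed with MAS5 per the submitters' processing notes. Its version and target are not given in the sources used here. The 2% trimmed mean was 1500.4 on every array, which a shared scaling target gives. Groups and replicate numbers came from the titles. Same-numbered arrays of different groups did not deviate together (correlations from -0.165 to 0.109), so no block was fitted.

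Control probe sets (64 of 22690) were left out and signals taken as log2. Probe sets below the 40th percentile of mean log2 signal were not tested, which left 13576, for 7954 genes represented by the brightest probe set (_x_at kinds only where there was no other). All 54 receptor probe sets were found, by Entrez number, in the RefSeq gene table with the same symbol. Limma 3.58.1 in R 4.3.3 (lmFit, eBayes with trend) fitted 3 group means with 3 contrasts and, for slopes, a marker level as covariate. Adjusted p is Benjamini-Hochberg over all probe sets tested, with a threshold of 0.05. Marker lists were compared by exact permutation over arrays. The code was tested on simulated data.

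The members, the marker and partner lists and the tests were chosen with earlier results of these data known, and the dopamine neuron level after the receptor values were seen. Genes named in each contrast were the 5 higher and 5 lower receptor genes with the smallest p, and the 2 partner genes with the smallest p per list; others are named with their class. The number of arrays limits the precision of every value: the median standard error over probe sets was 0.081 (STZ) and 0.085 (ob/ob) in comparisons with control. Alternatives were another filter, scaling, offset, gene summary, variance model, array weights, replicate block, 2-group fits, a region covariate and leaving out each array.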

Additional observations from a re-analysis of the deposited data

Results flagged for a closer look

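Among 54 pairs of a tested receptor gene and a group, 4 held an array far from the others of its group, where chance gives about 1 in 20, or 2.7. Grik5 read 2626 in control 3, against 3056 to 3209.8 in the other controls. Grin2c read 926.4 in ob/ob 5, against 819.4 to 829.7 in the other ob/ob mice. Chrnb2, the common beta subunit of brain nicotinic receptors, read 920.8 in STZ 6, against 557.9 to 631.5 in the others. Gria4 read 560.5 in STZ 3, against 684.8 to 767.3.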

How the results depend on the processing

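No receptor gene passed an adjusted p of 0.05 between groups under any of 10 other settings or with any of 17 arrays left out, and the lowest adjusted p was 0.0584 (limma, Grik5, ob/ob against control). Counts at an unadjusted p under 0.05 were 1 without the filter for STZ against control; 1 at the 60th percentile, 1 with quantile normalization and 1 with the region covariate for ob/ob against control; and 1 at the 60th percentile, 1 with only the 2 groups compared and 0 with the region covariate for ob/ob against STZ. With arrays left out they ran from 0 to 1, 1 to 3 and 0 to 3. Among the 27 values of genes named by rule, signs turned for Htr1a in STZ mice with an offset of 100 (0.000200), the mean of probe sets (0.0453) and array weights (0.0202), for Chrna4 in STZ mice with the mean of probe sets (0.0578) and the region covariate (0.0426), and for Chrna6 in ob/ob mice with the region covariate (0.22). Over all 18 receptor genes that covariate turned 3, 5 and 2 signs in the 3 comparisons. Ranges with arrays left out crossed 0 for Chrna4 (-0.0394 to 0.0595) and Htr1a (-0.0378 to 0.0402) in STZ mice, Chrna6 in ob/ob mice (-0.276 to 0.0109), and Gria3 (-0.0619 to 0.0197), Grm8 (-0.0978 to 0.0154) and Gria4 (-0.122 to 0.0302) in ob/ob against STZ. The Chrna6 slope on dopamine neuron genes passed in 0 genes at the 60th percentile, where Chrna6 itself was below the filter. With the replicate block it was 0.99 (adjusted p = 0.268), so 0 receptor genes passed; the replicate numbers share no pairing in these data, and the block changed no other call. With arrays left out the slope ran from 0.91 to 1.003 and the count from 0 to 1, lost without control 2 or control 6. With Slc6a3 alone as the level, an alternative chosen after seeing the data, it was 0.76 (adjusted p = 0.0072). The cause of these changes was not tested. Low signals limit the 28 genes below the filter, whose arrays scattered most.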
